A study of Mus musculus with 5 samples.

Results

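The genes described here were 34 named members of the immediate-early and heat-shock response, out of 31053 genes in the deposited tables, and they were chosen by gene symbol. Of the 34, 29 were immediate-early genes and 5 were heat-shock genes. They were followed across cell types and libraries of dissociated mouse ovary. The study took ovaries of untreated C57BL6/J mice at 2, 3, 4, 5 and 6 wk of age, with 1 library at each age. Every group shared the same strain and the same preparation: 0.25% trypsin at 37°C for about 20 min, straining, sorting of live cells by exclusion of the dye SYTOX Orange, and droplet capture with the 10x Genomics 3′ v3.1 kit. How many animals were pooled in a library is not given in the sources used here, and no library of undissociated tissue was analysed here, so RNA present in the ovary and RNA made during dissociation cannot be told apart in these levels. Age and library likewise cannot be told apart.

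Immediate-early genes are transcribed within minutes of a stimulus from transcription factors that are already present in the cell, without new protein synthesis. Many encode transcription factors themselves, such as the FOS and JUN proteins that pair to form AP-1, the zinc-finger EGR proteins and the orphan receptors of the NR4A family. Others encode proteins that end the signal, such as the phosphatase DUSP1, the cytokine-signal inhibitor SOCS3 and the RNA-binding protein ZFP36, which speeds the decay of AU-rich transcripts. Heat-shock genes encode chaperones and are induced by heat shock factor when proteins unfold. Both sets can be raised by enzymatic dissociation at body temperature and by physiological signals.

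The deposited tables held 48163 cells, from 7779 to 11077 in a library, with 93438618 to 144609431 unique molecular identifiers (UMIs, each standing for 1 captured RNA molecule) in a library and a median of 9056 to 12424 UMIs in a cell. No cell annotation was used. The cells were clustered without the 34 members and the 33 clusters were named from markers, which gave 18639 granulosa-like, 12898 stromal-like, 4975 smooth muscle-like, 1479 theca-like, 852 pericyte-like, 718 blood endothelial-like, 322 surface epithelial-like, 272 hematopoietic-like (led by the macrophage genes Lyz2 and C1qa), 224 lymphatic endothelial-like and 91 rete ovarii-like cells, and left 7693 cells (16.0%) without a name. Each named class carried its own markers: the summed granulosa markers, for example, ran from 4671 to 7213 CPM (counts per 1000000 UMIs of the class in a library) in granulosa-like cells and from 203 to 389 CPM in stromal-like cells, while the summed stromal markers ran from 2946 to 4780 CPM in stromal-like cells and from 40.8 to 77.1 CPM in granulosa-like cells. Other pairs were less apart. In the highest library the granulosa markers reached 1338 CPM in hematopoietic-like, 1128 CPM in blood endothelial-like and 1082 CPM in pericyte-like cells. They reached 1074 CPM in lymphatic endothelial-like and 1015 CPM in surface epithelial-like cells. Whether RNA of other cells was counted in these small classes was not tested. The smooth muscle markers ran from 2900 to 6722 CPM in pericyte-like against 6725 to 9828 CPM in smooth muscle-like cells. The stromal markers ran from 1231 to 2070 CPM in smooth muscle-like cells. The rete ovarii markers ran from 1340 to 2692 CPM in surface epithelial-like against 2291 to 2728 CPM in rete ovarii-like cells. No cluster was named from the germ cell markers. Summed, they reached 177 CPM in granulosa-like cells in the highest library (median 4.77 CPM over libraries) and at most 7.58 CPM in any other class. Any pair of libraries shared 18 to 35 cell barcodes. A level below is the UMIs of a gene over the UMIs of all genes, summed over the cells of a class in a library and given in CPM, libraries are listed in the order 2, 3, 4, 5 and 6 wk, and a class needed 20 cells in a library to be counted there. Class sums are set side by side as relative levels, so a higher share of 1 gene and a lower share of the rest cannot be told apart.

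Promoter sequence (250 bases before the start site, RefSeq, assembly GRCm38.p6) was matched for 29 of the 34 members. Hspa8, Egr1, Egr3, Ier2 and Nfkbiz were not matched. Motifs that inducible genes are known for were searched on both strands. The cyclic AMP response element TGACGTCA was present in Btg2 and Dusp1, 6.90% of the matched members against 1.77% of all 27025 genes with a window. The CArG box, the site of serum response factor, was present in Egr2 and Zfp36, again 6.90% against 1.62%. A heat shock element of 2 inverted units (GAANNTTC or TTCNNGAA) was present in 7 members, Cyr61, Egr2, Fosl2, Hspa1a, Hspa1b, Hsph1 and Jun, 24.1% against 14.5%, and this short form was searched after the form of 3 units (GAANNTTCNNGAA or TTCNNGAANNTTC) had been found in 0 members and 0.514% of all genes. The form of 3 units contains the form of 2. The AP-1 site TGANTCA was present in Zfp36l1, 3.45% of members against 7.82% of all genes. A match describes the letters of the window and is not evidence of binding. The windows below are printed 5′ to 3′ on the strand of the gene, with the motif in capitals, to show the matches in members described below, a choice made after the matches were seen: the chaperone pair Hspa1a (chr17:34972157-34972406, minus strand) and Hspa1b (chr17:34959239-34959488, minus strand) with the heat shock element at bases 104 to 97 before the start, Dusp1 (chr17:26508473-26508722, minus strand) and Btg2 (chr1:134079156-134079405, minus strand) with the cyclic AMP response element at bases 143 to 136 and 166 to 159, and Zfp36 (chr7:28379229-28379478, minus strand) and Egr2 (chr10:67537619-67537868, plus strand) with the CArG box at bases 58 to 49 and 72 to 63. Egr2 has several annotated starts, and the window shown is that of 1 of them. A gene was counted as holding a motif where any of its windows did.
Hspa1a: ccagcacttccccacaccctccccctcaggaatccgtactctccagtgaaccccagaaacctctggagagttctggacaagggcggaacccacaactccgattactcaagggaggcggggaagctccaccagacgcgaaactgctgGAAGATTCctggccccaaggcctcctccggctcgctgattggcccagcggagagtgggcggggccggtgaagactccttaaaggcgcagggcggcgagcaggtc
Hspa1b: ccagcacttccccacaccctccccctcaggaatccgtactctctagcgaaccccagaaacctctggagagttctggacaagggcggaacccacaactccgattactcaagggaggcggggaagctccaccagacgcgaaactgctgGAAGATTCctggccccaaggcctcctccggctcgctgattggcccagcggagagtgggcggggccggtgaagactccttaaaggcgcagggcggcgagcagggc
Dusp1: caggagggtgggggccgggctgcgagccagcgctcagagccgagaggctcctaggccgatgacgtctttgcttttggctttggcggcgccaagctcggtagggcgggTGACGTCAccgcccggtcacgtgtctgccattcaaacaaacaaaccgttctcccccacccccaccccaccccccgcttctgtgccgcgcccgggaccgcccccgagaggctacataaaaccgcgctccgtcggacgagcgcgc
Btg2: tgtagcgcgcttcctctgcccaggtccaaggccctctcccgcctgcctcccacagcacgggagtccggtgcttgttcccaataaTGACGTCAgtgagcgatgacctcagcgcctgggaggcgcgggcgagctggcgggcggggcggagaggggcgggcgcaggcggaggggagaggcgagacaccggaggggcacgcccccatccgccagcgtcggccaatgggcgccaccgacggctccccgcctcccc
Zfp36: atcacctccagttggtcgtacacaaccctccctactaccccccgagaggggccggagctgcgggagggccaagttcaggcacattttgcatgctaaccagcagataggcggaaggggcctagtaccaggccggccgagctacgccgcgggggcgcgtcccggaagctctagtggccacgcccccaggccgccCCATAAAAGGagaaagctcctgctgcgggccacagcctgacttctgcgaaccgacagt
Egr2: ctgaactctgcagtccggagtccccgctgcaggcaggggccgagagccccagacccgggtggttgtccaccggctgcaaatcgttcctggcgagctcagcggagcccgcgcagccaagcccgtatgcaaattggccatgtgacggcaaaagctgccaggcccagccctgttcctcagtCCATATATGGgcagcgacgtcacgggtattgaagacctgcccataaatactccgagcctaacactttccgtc
The Hspa1a and Hspa1b windows were identical at 247 of 250 bases, and the transcripts are near-identical copies too, so the division of UMIs between them is uncertain.

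The immediate-early sum was lowest in granulosa-like cells, next lowest in theca-like cells and high in pericyte-like, stromal-like and smooth muscle-like cells. The heat-shock sum differed by 1.46-fold between the highest and the lowest class mean, while its single members ranged from 1.56-fold for Hspa8 to 4.82-fold for Hspa1b and 8.39-fold for Hspa1a. Summed over the 29 immediate-early genes, stromal-like cells held 21976, 26732, 27388, 32704 and 23414 CPM in the 5 libraries (mean 26443 ± 4162, SD, n = 5). Granulosa-like cells held 8069, 10676, 11631, 13102 and 8558 CPM (mean 10407 ± 2105, SD, n = 5). The ranges did not overlap, and within a library the stromal-like level was 2.36 to 2.74 times the granulosa-like level. Theca-like cells lay between them, at 11316, 16136, 19759, 19582 and 11950 CPM (15749 ± 4031, SD, n = 5), above granulosa-like cells in all 5 libraries. Of the classes counted in at least 4 libraries pericyte-like cells had the highest mean (28121 ± 3695), followed by stromal-like, smooth muscle-like (24792.5 ± 3082), lymphatic endothelial-like (23460 ± 5071, n = 4), surface epithelial-like (21307.5 ± 6122), blood endothelial-like (20483 ± 3319) and hematopoietic-like cells (20417 ± 4053), where n = 5 unless given. With mitochondrial and ribosomal protein genes left out of the denominator this order turned, with 38960.4 CPM in stromal-like and 36095 CPM in pericyte-like cells. Each neighbouring pair in the order given had overlapping ranges, granulosa-like and theca-like cells included. Lymphatic endothelial-like cells were not counted at 6 wk, while the surface epithelial-like mean includes a 6 wk library in which most members were low. The order of these classes was therefore not compared over the same ages. Rete ovarii-like cells, counted at 2 and 3 wk, held 29022 and 27566 CPM.

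The 5 heat-shock members summed to 2655, 3874, 3473, 3104 and 2959 CPM in stromal-like cells (3213 ± 472, SD, n = 5) and to 2513, 3768, 3813, 3213 and 2930 CPM in granulosa-like cells (3248 ± 555, SD, n = 5). The classes overlapped almost completely, and the stromal-like mean was 0.989 times the granulosa-like mean. Theca-like cells had the highest mean (3347 ± 532) and surface epithelial-like cells the lowest of the classes with 5 libraries (2288 ± 336). Pericyte-like cells were second lowest for heat-shock genes (2351 ± 256) and were below stromal-like cells in each of the 5 libraries. Hspa8, the constitutive chaperone, gave most of the UMIs of this sum in every class, so the inducible members are given separately below.

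**Figure D1:**
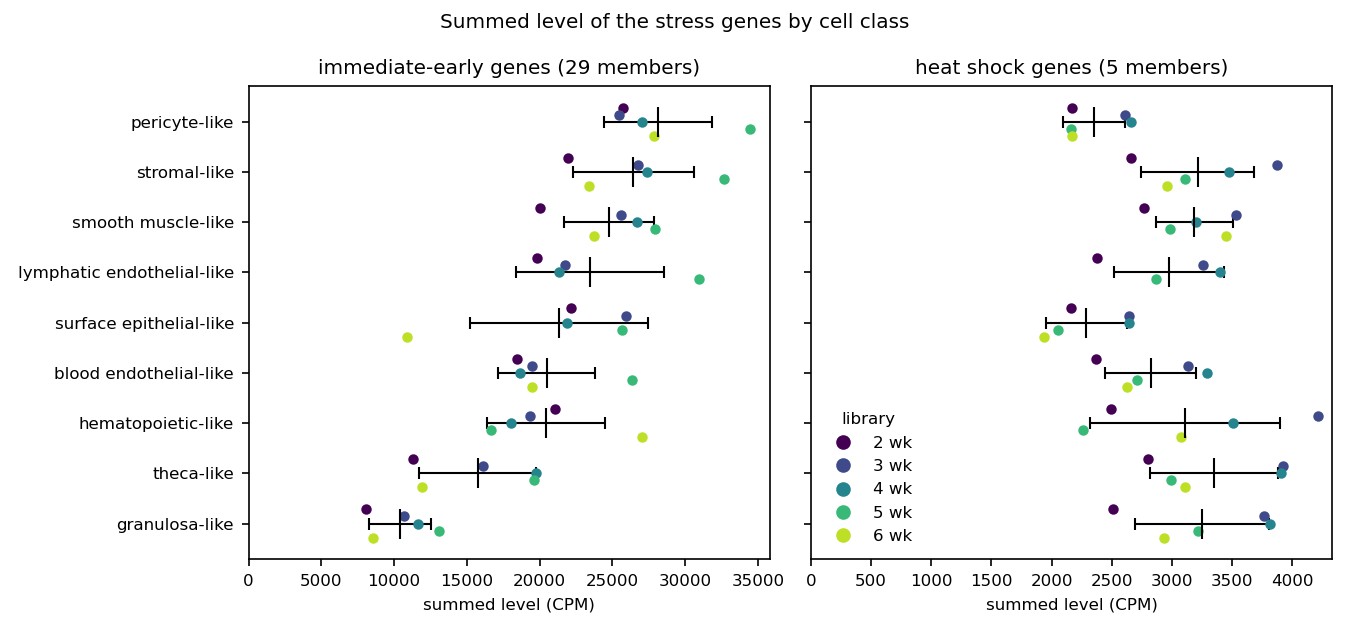
Summed level of the 29 immediate-early genes and of the 5 heat-shock genes in each class (CPM), with 1 point for each library, a vertical line for the mean and whiskers for 1 SD over the libraries. Granulosa-like points sit between 8069 and 13102 CPM for the immediate-early genes, below every stromal-like point, while the heat-shock levels of the 2 classes overlap.

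Class differences were tested on UMIs summed by class and library with edgeR's quasi-likelihood test, with library as a block, stromal-like cells as the reference and p-values adjusted over all 13844 genes tested. All 34 members passed the filter on low counts. A difference is called at an adjusted p under 0.05. With library as a block, the level of each library is taken out. The p-values measure how far class differences vary between libraries of 5 ages, and not between animals of 1 age. That spread was estimated over the sums of all named classes together. Fold changes are given on the log2 scale, positive where the named class was higher, with their standard errors (SE).

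Granulosa cells surround and nourish the oocyte and are the epithelial-like somatic cells of the follicle. In granulosa-like cells 28 of the 34 members were lower than in stromal-like cells and 1 was higher, against 31.0% lower and 33.3% higher among all genes, and the median log2 difference of the members was -1.57. Every AP-1, EGR and NR4A gene was lower, as were all 4 antiproliferative and mRNA-decay genes. In 29 members the granulosa-like level was below the stromal-like level of the same library in 5 of 5 libraries, and in 23 the ranges of the 2 classes did not overlap. Neither count was set against a share over all genes, so neither is read as particular to the members.

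Of the receptors of the NR4A family, 2 showed the widest separation. Nr4a3 (ENSMUSG00000028341) stood at 82.9, 96.9, 60.2, 91.5 and 52.8 CPM in stromal-like cells and at 2.99, 3.32, 3.46, 5.78 and 3.00 CPM in granulosa-like cells, a log2 difference of -4.50 (SE 0.27, adjusted p = 1.31e-17). Nr4a2 stood at 323, 466, 338, 263 and 217 CPM against 15.3, 21.2, 23.2, 30.3 and 20.5 CPM, a difference of -3.97 (SE 0.29, adjusted p = 4.10e-15). For both genes every granulosa-like library was below every stromal-like one. Klf4, a transcription factor linked to cell-cycle exit, came next, at 877, 1462, 1113, 984 and 535 CPM in stromal-like and 67.6, 129, 115, 107 and 53.3 CPM in granulosa-like cells (-3.54, SE 0.28, adjusted p = 4.36e-14). Here too the lowest stromal-like library was above the highest granulosa-like one. Nr4a1, the remaining receptor of its family, differed by -2.27 and Klf2, a relative of Klf4, by -2.35.

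The feedback genes were lower as well. Dusp1, which dephosphorylates MAP kinases, ran from 263 to 403 CPM in stromal-like and from 36.0 to 70.9 CPM in granulosa-like cells (-2.71, adjusted p = 8.00e-12). Socs3 ran from 235 to 676 against 26.9 to 98.3 CPM (-3.12, adjusted p = 5.26e-14), and Zfp36 from 110 to 607 against 18.3 to 133 CPM (-2.47, adjusted p = 9.79e-12). The Zfp36 ranges overlapped, because the gene varied widely between libraries in both classes, but the granulosa-like level was the lower in each library. Ier5, whose product modulates heat shock factor, differed by -2.89, Junb, an AP-1 partner, by -2.52, and Zfp36l1, a relative of Zfp36, by -2.31. Gadd45b and Btg2, both growth-arrest genes, differed by -2.19 and -2.07.

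The core AP-1 and EGR genes were lower by less. Fos (ENSMUSG00000021250) stood at 3872, 3671, 4086, 5268 and 4002 CPM in stromal-like and at 1352, 1337, 1634, 2289 and 1330.5 CPM in granulosa-like cells (-1.56, SE 0.23, adjusted p = 1.34e-07). Egr1 stood at 2202, 2541, 2672, 3192 and 2896 CPM against 874, 949, 953, 1215 and 1021 CPM (-1.58, SE 0.16, adjusted p = 1.80e-11). For both genes the 2 classes did not overlap. Jun, which was also high in granulosa-like cells, stood at 1866, 4547, 4549, 4375 and 2254 CPM against 1101, 2542, 3022, 2714 and 1579.5 CPM, so the classes overlapped across ages while the granulosa-like level was lower in each library (-0.83, SE 0.20, adjusted p = 0.000395). The remaining members called lower were Fosb (-1.81), Fosl2 (-1.24), Jund (-0.96), Egr2 (-1.14), Egr3 (-1.85), Ier2 (-1.17), Btg1 (-1.0), Nfkbiz (-1.54) and the small GTPase gene Rhob (-1.03). The other 5 members did not pass: Ier3 (-0.53), Klf6 (-0.11), Nfkbia (-0.22), Hspa8 (0.04) and Cyr61 (0.48, adjusted p = 0.050).

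The heat-shock members went different ways in granulosa-like cells. Hspa1a, an inducible HSP70 gene, stood at 174, 167, 146, 299.8 and 223 CPM in stromal-like and at 24.1, 18.4, 28.7, 74.3 and 44.3 CPM in granulosa-like cells (-2.61, SE 0.32, adjusted p = 5.08e-09), with no overlap. Its copy Hspa1b differed by -1.53 and the HSP40 co-chaperone gene Dnajb1 by -0.91. Hsph1, a nucleotide exchange factor of HSP70, was the 1 member called higher, at 101, 211, 119, 89.3 and 143 CPM in granulosa-like against 54.1, 124, 90.3, 52.9 and 79.7 CPM in stromal-like cells (0.58, SE 0.14, adjusted p = 0.000284). It was higher in 5 of 5 libraries although the classes overlapped, and it was not called without the library block (adjusted p = 0.143). Hspa8 stood at 2234, 3198, 3342, 2747 and 2565 against 2120, 2973, 2678, 2244 and 2279 CPM and was not called (adjusted p = 0.705).

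Granulosa-like cells were deeper than stromal-like cells (median 14788 against 9350 UMIs) and had more mitochondrial UMIs (median 7.06% against 3.65%). Among cells of 8000 to 15000 UMIs the same 28 members were lower in granulosa-like cells. The same 28 were lower among cells with at least 1000 genes and at most 10% mitochondrial UMIs, and the part of the mitochondrial share in the difference was not tested. Over all genes 3929 of 13199 were lower in the depth band and 4404 of 13755 in the stricter cells. The classes also differed in dividing cells. Clusters led by Cdc6, by Ube2c and by Ccnb2 held 2753, 2373 and 610 of the 18639 granulosa-like cells. A dividing cluster held 771 of the 12898 stromal-like cells. The part of dividing cells in the difference was not tested.

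**Figure D2:**
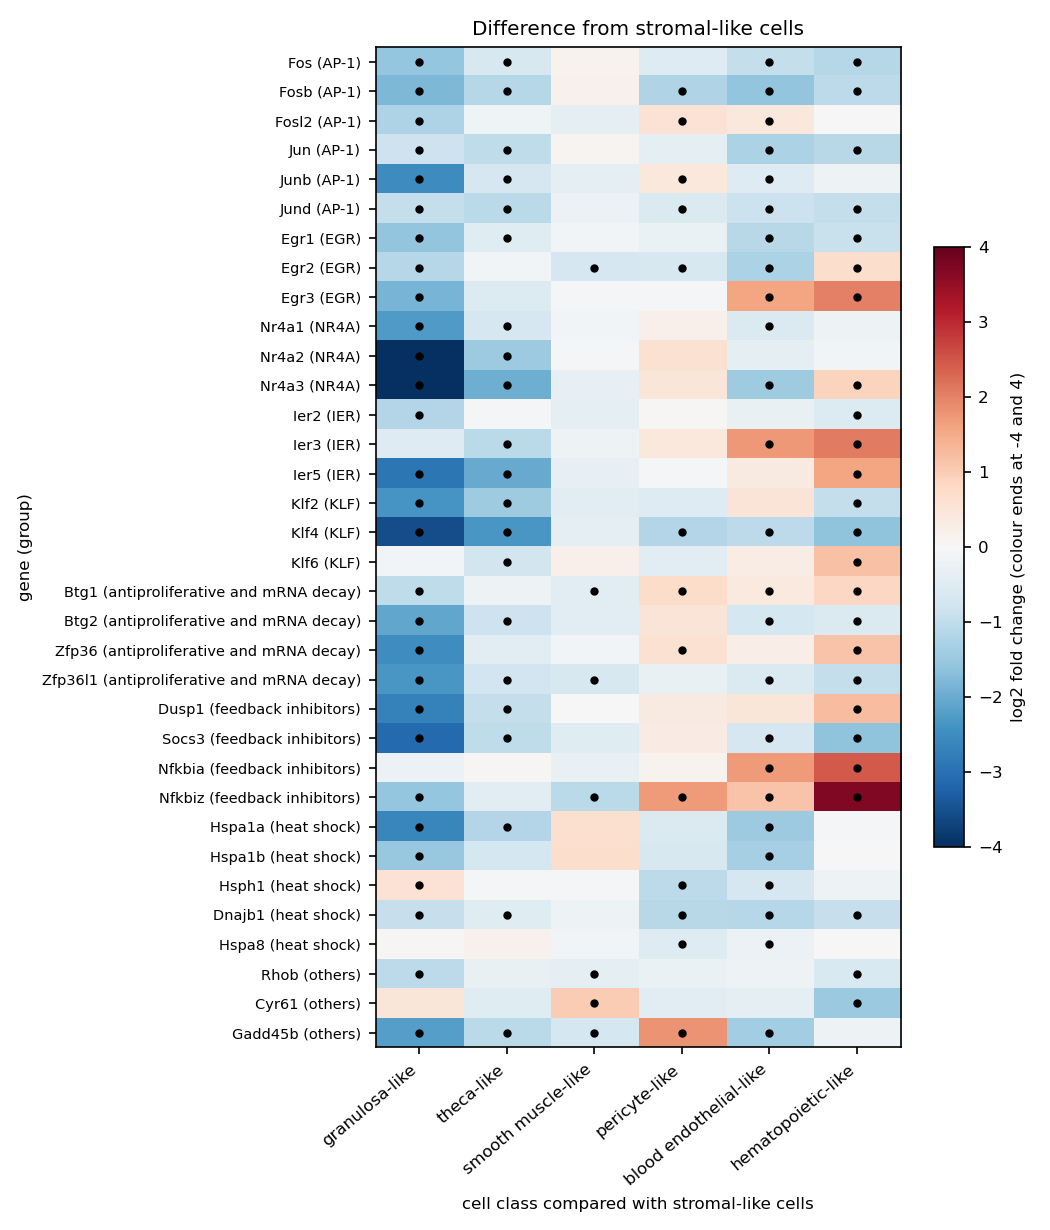
Log2 difference of each of the 34 members from stromal-like cells in 6 classes, from edgeR's quasi-likelihood fit, with blue for lower, red for higher, the colour ending at -4 and 4, and a dot where the adjusted p was under 0.05. The granulosa-like column is lower throughout except for Hsph1 and the members not called, with Nr4a3 at -4.50, and the hematopoietic-like column holds the highest value, Nfkbiz at 3.69.

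Theca cells are the steroid-making stroma around the follicle. Theca-like cells had 21 members lower than stromal-like cells and 0 higher, against 23.6% lower and 20.3% higher among all genes, with a median log2 difference of -0.69. The count of higher members was also 0 at an unadjusted p under 0.05 in edgeR and 0 in DESeq2, which called 3009 of all 13844 genes higher. By edgeR's quasi-likelihood test the 3 lowest were Klf4, Ier5 and Nr4a3. Klf4 stood at 163, 387, 346, 125 and 63.5 CPM (-2.34, SE 0.27, adjusted p = 3.10e-09). Ier5 stood at 57.8, 34.7, 40.9, 22.3 and 61.8 CPM against 145, 158, 162, 203 and 163 CPM in stromal-like cells (-2.02, SE 0.18, adjusted p = 9.81e-12). Both were below every stromal-like library. Nr4a3 stood at 20.3, 30.6, 22.3, 17.6 and 11.8 CPM, also without overlap (-1.94, SE 0.26, adjusted p = 8.36e-08). All 3 KLF and all 3 NR4A genes and 5 of 6 AP-1 genes were lower, and Fosl2 (-0.17), Ier2 (-0.04), Btg1 (-0.21) and Nfkbia (0.03) were among the 13 not called. Hspa8 was higher in each of the 5 libraries but was not called (0.18, adjusted p = 0.102). Among cells of 8000 to 15000 UMIs, which leaves out much of this deep class (median 17043 UMIs), 11 members were lower instead of 21. Over all genes 2474 of 13199 were lower there, against 3263 of 13844 in the main fit.

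Smooth muscle cells of the ovarian stroma contract around follicles. Smooth muscle-like cells had the fewest calls against stromal-like cells: 27 of the 34 members were not called, 6 were lower and 1 was higher, against 10.8% lower and 9.19% higher among all genes. The higher member was Cyr61 (listed in RefSeq as Ccn1), a secreted matrix protein and a target of the mechanosensitive factor YAP. It stood at 562, 199.8, 207, 334 and 601 CPM in smooth muscle-like and at 353, 115, 87.8, 124 and 247 CPM in stromal-like cells (1.03, SE 0.22, adjusted p = 0.000454), higher in each library although the classes overlapped. Without library as a term in the edgeR fit none of the 7 calls of this contrast held. Over all 13844 genes 760 were then higher and 581 lower, instead of 1272 and 1489. The 3 lowest were Nfkbiz (-1.06, SE 0.29, adjusted p = 0.00605), a nuclear inhibitor and co-activator of NF-κB, Gadd45b (-0.69, SE 0.22, adjusted p = 0.0231) and Egr2 (-0.68, SE 0.22, adjusted p = 0.0234). Nfkbiz stood at 16.7, 25.8, 35.9, 43.7 and 20.5 CPM against 29.7, 50.6, 69.5, 105 and 43.5 CPM, Gadd45b at 201, 491, 537, 343 and 227 against 379, 619, 804, 639 and 366 CPM, and Egr2 at 56.3, 52.6, 59.0, 55.7 and 35.9 against 86.4, 63.4, 89.7, 98.9 and 69.2 CPM. Each was lower in every library, and only Egr2 came without overlap between the classes. Btg1, Zfp36l1 and Rhob were the other lower members. Hspa1a reached its highest class mean here (318 ± 114 CPM, n = 5), with 295, 219, 217, 375 and 485 CPM, but did not pass the test (0.64, adjusted p = 0.149). When all cells were clustered anew without integration, or with the members among the clustering genes, 7 members were higher and 2 lower. Over all genes 2122 were higher and 2379 lower of 13446 without integration, and 1984 and 2327 of 13877 with the members in. The class then held 4017 and 4123 cells instead of 4975. In both of these clusterings the cluster led by Mxd3 and Pimreg was named stromal-like. In the main clustering such a cluster, of 855 dividing cells, counts as smooth muscle-like. The calls above therefore include cells whose class is uncertain, and their part in the calls was not tested.

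Pericytes wrap capillaries. Pericyte-like cells had 6 members higher and 7 lower than stromal-like cells, against 17.3% in each direction among all genes. Gadd45b, a stress-induced regulator of p38 kinase signalling and DNA demethylation, stood at 2118, 2577, 2780.2, 2259 and 1104 CPM in pericyte-like cells, above every stromal-like library and 2.83 times the mean of the next class (1.80, SE 0.23, adjusted p = 2.89e-08). Nfkbiz stood at 136, 151, 208, 271 and 249 CPM, also above every stromal-like library (1.71, SE 0.29, adjusted p = 9.32e-06). Btg1 stood at 892, 745, 813, 1163 and 949.7 CPM against 408, 495, 545, 555 and 499 CPM, again without overlap (0.72, SE 0.13, adjusted p = 3.03e-05). Zfp36 (0.62), Fosl2 (0.58) and Junb (0.44) were the other higher members. Fosb stood at 782, 1065, 922, 1043 and 407 CPM against 1390.5, 2408, 1909, 2154 and 938 CPM, lower in each library (-1.22, SE 0.17, adjusted p = 1.48e-07). Klf4 stood at 640.5, 735, 638, 441 and 141 CPM (-1.18, SE 0.26, adjusted p = 0.000391) and Dnajb1 at 146, 196, 224, 201 and 160 CPM against 227, 543, 491, 337 and 278 CPM (-1.10, SE 0.18, adjusted p = 5.84e-06). Dnajb1 was the 1 of these 3 whose classes did not overlap. With Hsph1 (-1.05) and Hspa8 (-0.53), 3 of the 5 heat-shock genes were lower, and Hspa1a (-0.58, adjusted p = 0.173) and Hspa1b (-0.64, adjusted p = 0.135) were not called. Among cells of 8000 to 15000 UMIs 3 members were higher instead of 6. Over all genes 1716 of 13199 were higher there, against 2394 of 13844 in the main fit.

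Blood endothelial-like cells had 6 members higher and 19 lower, against 23.9% higher and 26.2% lower among all genes. Nfkbia and Nfkbiz (1.14), which both encode regulators of NF-κB, were among the higher members, with Fosl2 (0.41) and Btg1 (0.40). Ier3, a survival gene induced by NF-κB, stood at 685, 1494, 939.7, 1622 and 708 CPM against 214, 330.4, 398, 321 and 156 CPM in stromal-like cells (1.75, SE 0.29, adjusted p = 2.51e-06). Nfkbia, which holds NF-κB in the cytoplasm, stood at 572, 759, 772, 1190.0 and 462 CPM against 148, 224, 217, 291 and 122 CPM (1.70, SE 0.20, adjusted p = 3.57e-09). For both genes the classes did not overlap. Egr3, a target of VEGF signalling in endothelium, stood at 98.2, 86.8, 89.8, 173 and 183 CPM against 47.7, 47.9, 38.8, 56.2 and 20.2 CPM, also without overlap (1.58, SE 0.27, adjusted p = 5.83e-06). Fosb was lowest, at 592, 995, 735, 776 and 329 CPM (-1.59, SE 0.17, adjusted p = 2.42e-10), followed by Hspa1a at 103, 89.9, 119.8, 96.6 and 28 CPM (-1.46, SE 0.35, adjusted p = 0.000558) and Nr4a3 at 50.2, 31.0, 24.9, 37.2 and 17.3 CPM (-1.43, SE 0.29, adjusted p = 6.09e-05). Hspa1a and Nr4a3 were below every stromal-like library, while the Fosb ranges overlapped. All 5 heat-shock genes and 5 of 6 AP-1 genes were lower. Klf2, the flow-responsive factor of endothelium, stood at 1214, 1019.7, 800.0, 1131 and 1419 CPM and was not called (0.52, adjusted p = 0.0661). The median UMIs of these cells ran from 2217 at 3 wk to 15162 at 5 wk, and without the library block 12 members were lower instead of 19. Over all 13844 genes 2885 were then lower instead of 3624.

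Hematopoietic-like cells, 27 to 90 in a library and led by macrophage genes, had the most members higher, 11, with 14 lower, against 24.9% and 28.1% among all genes. The NF-κB genes led: Nfkbiz stood at 646, 672, 639, 478 and 1005 CPM against at most 105 CPM in stromal-like cells (3.69, SE 0.31, adjusted p = 4.41e-13). Nfkbia stood at 1103, 1263, 942, 745 and 1056 CPM (2.44, SE 0.21, adjusted p = 6.71e-13) and Ier3 at 998, 1748, 939, 562 and 1283 CPM (2.09, SE 0.29, adjusted p = 1.18e-07). None of these 3 overlapped stromal-like cells. Egr3 (2.03), Ier5 (1.59), Dusp1 (1.23), Klf6 (1.16), Zfp36 (1.13), Nr4a3 (0.90), Btg1 (0.83) and Egr2 (0.70) were higher too. Klf4 stood at 284, 303, 409, 384 and 188 CPM (-1.62, SE 0.27, adjusted p = 3.09e-06), Socs3 at 102, 78.2, 141, 152 and 108 CPM (-1.61, SE 0.27, adjusted p = 2.42e-06) and Cyr61 at 155, 59.4, 57.9, 28.7 and 56.4 CPM (-1.48, SE 0.27, adjusted p = 1.17e-05). Klf4 and Socs3 were below every stromal-like library, and Cyr61 overlapped. Of the AP-1 genes 4 of 6 were lower, Fos (-1.15) and Jun (-1.11) among them. Of the heat-shock genes Dnajb1 was lower (-0.92) and the other 4 were not called. The median log2 difference of all genes moved by 0.178 under DESeq2's scaling in this contrast, the largest such shift.

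The smaller classes were described without a test. Lymphatic endothelial-like cells, counted at 2 to 5 wk, had the highest mean of Klf4 (1174, 1632, 1051 and 1908 CPM), of Klf2 (1003, 1069, 1059 and 2309.5 CPM) and of Dusp1 (861, 705, 693 and 1035 CPM). Surface epithelial-like cells had the second highest mean of Gadd45b, at 664, 1025, 871, 789 and 483 CPM. Rete ovarii-like cells, at 2 and 3 wk, held 2069.9 and 3766 CPM of Ier3, 1523 and 1179 CPM of Klf6 and 1597 and 447 CPM of Cyr61, each above the mean of every other class. These cells numbered 53 and 32.

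By class mean, and leaving out rete ovarii-like cells, hematopoietic-like cells were highest for 10 members, pericyte-like for 8, smooth muscle-like for 6, stromal-like for 5, lymphatic endothelial-like for 3 and granulosa-like and theca-like for 1 each. The granulosa-like one was Hsph1 and the theca-like one Hspa8. In 4 members the libraries of the highest class did not overlap those of the second: Nfkbiz (688 against 203 CPM, hematopoietic-like and pericyte-like), Ier5 (516 against 245 CPM, hematopoietic-like and blood endothelial-like), Klf6 (598 against 395 CPM, hematopoietic-like and lymphatic endothelial-like) and Gadd45b (2168 against 766 CPM, pericyte-like and surface epithelial-like). For the other 30 the first and second classes overlapped. No count of this paragraph was set against a share over all genes, so none is read as particular to the members.

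Levels also moved with the library. With 1 library an age this is a description without a test, and the tables of the 2, 3 and 4 wk libraries name Cell Ranger 3.1.0 while those of the 5 and 6 wk libraries name 6.0.1, so age, library and counting version cannot be told apart. The mix of clusters in a class differed between libraries too, and 1 granulosa-like cluster of 1482 cells drew 53.3% of them from 1 library. The part of this mix in the shifts was not tested. Zfp36 had the widest range of the members in both stromal-like and granulosa-like cells. It stood at 291, 110, 166, 607 and 482 CPM in stromal-like cells, at 65.9, 18.3, 32.9, 133 and 92.2 CPM in granulosa-like cells and at 572, 178, 247, 1019.6 and 863 CPM in pericyte-like cells. The 5 wk library was highest and the 3 wk library lowest in each of the 3, with a highest over lowest ratio of 5.54 in stromal-like and 7.27 in granulosa-like cells. Btg2, an antiproliferative target of p53, was likewise low at 3 and 4 wk and high at 5 and 6 wk, at 1679.9, 797, 909, 2527 and 2361 CPM in stromal-like and 373, 279.7, 276, 657 and 462 CPM in granulosa-like cells. The next widest members in stromal-like cells were Cyr61 (4.02), Nfkbiz (3.55), Btg2 (3.17) and Nr4a1 (2.89), and in granulosa-like cells Hspa1a (4.04), Gadd45b (3.91), Hspa1b (3.69) and Socs3 (3.66).

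Cyr61 and Nr4a1 had another order. Cyr61 was highest at 2 wk and again high at 6 wk in stromal-like cells (353, 115, 87.8, 124 and 247 CPM), and in smooth muscle-like cells too the 3 and 4 wk libraries were the lowest. Nr4a1 stood at 949, 358, 328, 711 and 626 CPM in stromal-like and at 742, 347, 346, 613 and 698 CPM in smooth muscle-like cells, low at 3 and 4 wk in both. Klf4 and Fosb went the other way, with the 3 wk library highest and the 6 wk library lowest in all 6 classes compared.

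To describe how far the order of libraries was shared, granulosa-like, stromal-like, smooth muscle-like, theca-like, pericyte-like and blood endothelial-like cells were compared over the 4451 genes with at least 200 UMIs in each, a description chosen after the values were seen. Any 1 library was highest in at least 5 of the 6 classes for 11 of the 34 members, against 27.1% of all genes, and lowest for 13 of 34, against 26.1%. The 5 wk library was highest in at least 5 of the 6 classes for 7 members, Fos, Fosl2, Junb, Zfp36, Zfp36l1, Socs3 and Nfkbiz, against 2.11% of all genes. The 3 wk library was highest for 3 (Fosb, Klf4 and Hsph1, against 5.37%), the 4 wk library for 1 (Jun, against 3.80%) and the 2 and 6 wk libraries for 0 (against 8.34% and 7.53%). The 2 wk library was lowest in at least 5 classes for Egr1, Ier2, Nfkbiz, Dnajb1 and Hspa8 (against 3.46%), the 6 wk library for Fosb, Ier3, Klf4, Klf6 and Nfkbia (against 6.96%), the 3 wk library for Btg2 and Zfp36 (against 4.52%), the 5 wk library for Hsph1 (against 6.16%) and the 4 wk library for 0 (against 4.99%). The classes of a library were dissociated, sorted and sequenced together.

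**Figure D3:**
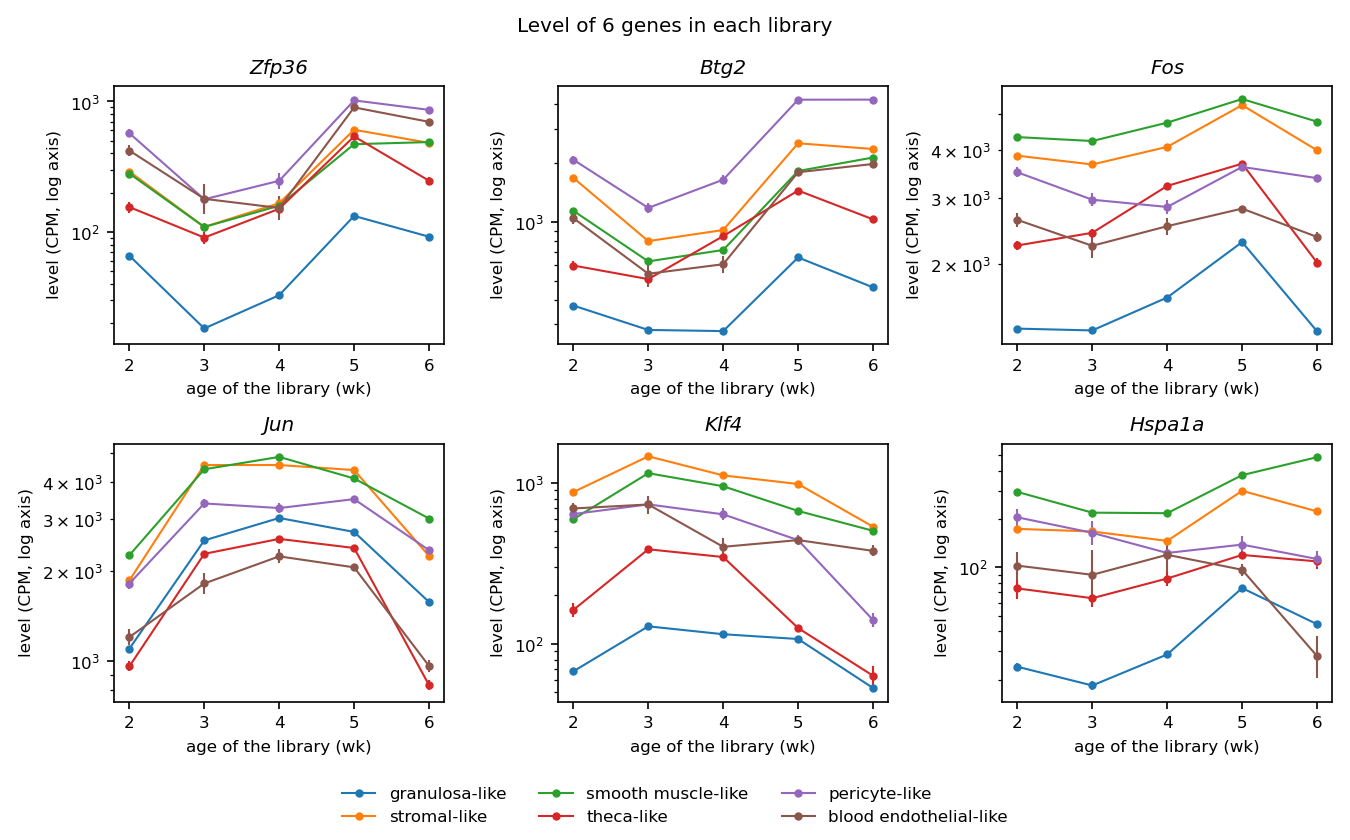
Level (CPM, log axis) of Zfp36, Btg2, Fos, Jun, Klf4 and Hspa1a by age of the library (wk), with 1 line for each of 6 classes and 95% Poisson intervals that cover counting error only. Zfp36 dips at 3 wk and peaks at 5 wk in most classes, from 110 to 607 CPM in stromal-like cells, and Klf4 is highest at 3 wk and lowest at 6 wk in each line.

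Counted within a class, a member was past 1.5-fold when its library stood that far above or below the median of the other 4. At 5 wk 9 members were higher in granulosa-like cells (against 7.26% of genes with at least 200 UMIs), 9 in stromal-like cells (5.90%), 6 in smooth muscle-like cells (3.42%), 11 in theca-like cells (13.4%), 8 in pericyte-like cells (4.29%), 11 in blood endothelial-like cells (6.41%) and 6 of 29 in surface epithelial-like cells (4.84%). Hematopoietic-like cells went the other way at 5 wk, with 1 of 33 higher (10.4%) and 8 of 33 lower (8.46%). Btg2, Zfp36, Socs3, Hspa1a and Hspa1b were among the members higher at 5 wk in both granulosa-like and stromal-like cells. At 2 wk 12 members were lower in granulosa-like cells (10.2%), Jun, Fosb, Klf4 and Hspa1a among them. At 6 wk 11 were lower in stromal-like cells (7.62%), with all of Nr4a2, Nr4a3, Klf4, Jun, Fosb and Egr3. Theca-like cells numbered 146 to 603 in a library, and their summed theca markers ran from 827 to 9709 CPM between libraries. The part of this shift in the theca-like counts was not tested. In theca-like cells 13 members were higher at 4 wk (7.61%) and 18 lower at 6 wk (9.75%). There 27 of 34 spanned at least 2-fold from the lowest to the highest library (32.4% of genes), against 22 of 34 in blood endothelial-like (32.5%), 21 of 33 in hematopoietic-like (32.4%), 19 of 34 in granulosa-like (26.8%), 19 of 34 in stromal-like (22.1%), 19 of 34 in smooth muscle-like (20.5%), 17 of 29 in surface epithelial-like (23.1%) and 16 of 34 in pericyte-like cells (20.8%).

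In the 6 wk library more members were lower than higher in every class counted except hematopoietic-like cells. Of 34 members 13 were lower in blood endothelial-like (10.9%), 10 in pericyte-like (7.16%), 9 in smooth muscle-like (8.16%) and 8 in granulosa-like cells (5.06%). Higher in these were 5 (7.84%), 4 (6.81%), 5 (5.63%) and 2 (7.3%), and 3 each in stromal-like (8.95%) and theca-like cells (8.4%). The largest share lower was in surface epithelial-like cells, and hematopoietic-like cells went the other way. In surface epithelial-like cells 20 of the 29 members with enough UMIs were lower at 6 wk (8.85%): Fos stood at 4865, 4838, 3811, 4409 and 1275 CPM, Hspa1a at 162, 235, 149, 171 and 28.4 CPM and Dusp1 at 459, 826, 749.8, 597 and 133 CPM. For all of these the 6 wk value was below that of every other library. In hematopoietic-like cells 11 of 33 were higher at 6 wk (10.1%), with Fos at 1467, 1282, 1684, 1567 and 3409 CPM, Zfp36 at 717, 278, 271, 711 and 1672 CPM and Btg2 at 903, 513, 562, 1155 and 2782 CPM. These rest on 65 and 67 cells of the 6 wk library.

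**Figure D4:**
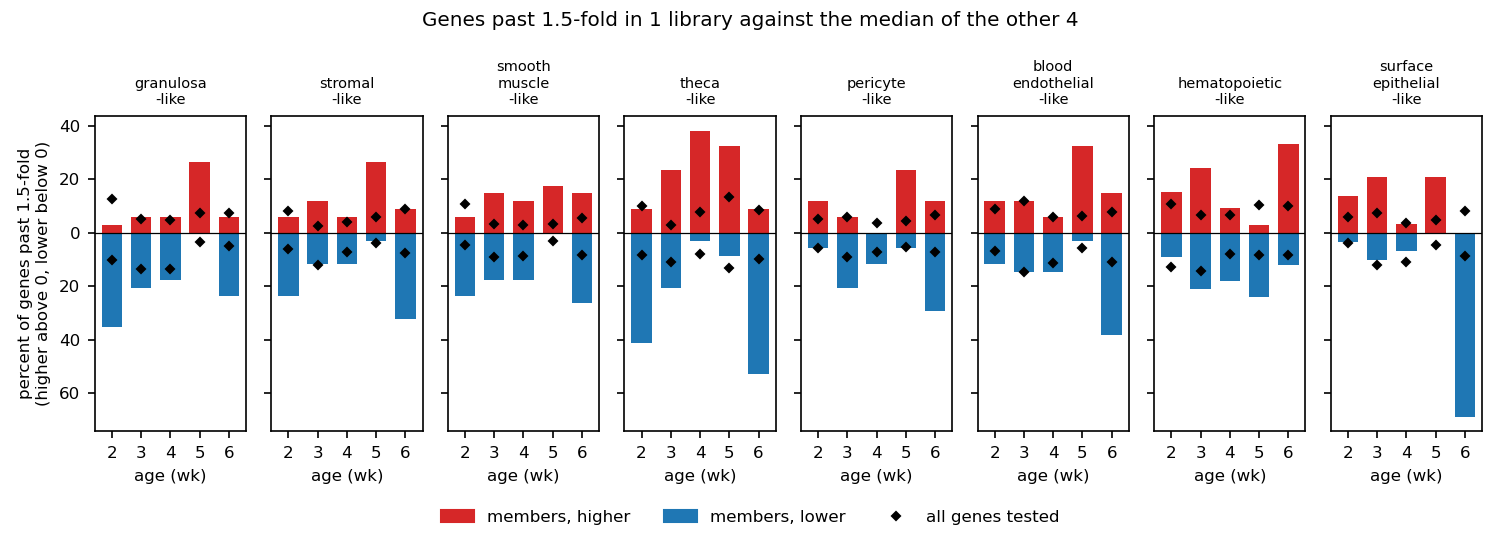
Percent of members past 1.5-fold above (upward red bars) or below (downward blue bars) the median of the other 4 libraries, by class and age (wk), with a diamond for all genes tested. The 6 wk theca-like and surface epithelial-like bars reach 52.9% and 69.0% of members lower (18 and 20 genes), and the 5 wk bars of granulosa-like and stromal-like cells stand for 9 genes higher.

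Within a class the immediate-early sum differed between clusters, which had been drawn without the members. In stromal-like cells it was highest in a cluster of 2041 cells led by Lrat and Tmeff2, with Cxcl12 also among its top genes (mean 40551 ± 7432 CPM, n = 5). It was lowest in a cluster of 771 dividing cells with Tk1, Pclaf and Cdc6 among its top genes (15350 ± 1945, n = 5). The ranges, 30613 to 50455 and 12499 to 17460.4 CPM, did not overlap. Fos was at 6991 and 2413 CPM over all cells of these clusters, and Hspa1a at 549 and 76.6 CPM. Among cells named smooth muscle-like, the main cluster held 28006 ± 3444 CPM and a dividing cluster of 855 cells led by Mxd3 and Pimreg held 16438 ± 2401 CPM. In both other clusterings (members among the clustering genes, and no integration) the cluster led by Mxd3 and Pimreg was named stromal-like. The class of these dividing cells is therefore uncertain, and they count in the smooth muscle-like sums above. In granulosa-like cells the highest was a cluster of 723 cells with Krt79 and Gatm among its top genes (22004 ± 3133). The lowest was a mitotic cluster of 610 cells with Ccnb2 and Cdc20 among its top genes (6775 ± 1309). The stromal-like clusters with the highest and lowest sums also differed in depth (median 5813 and 21159 UMIs), and the part of depth in that gap was not tested.

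**Figure D5:**
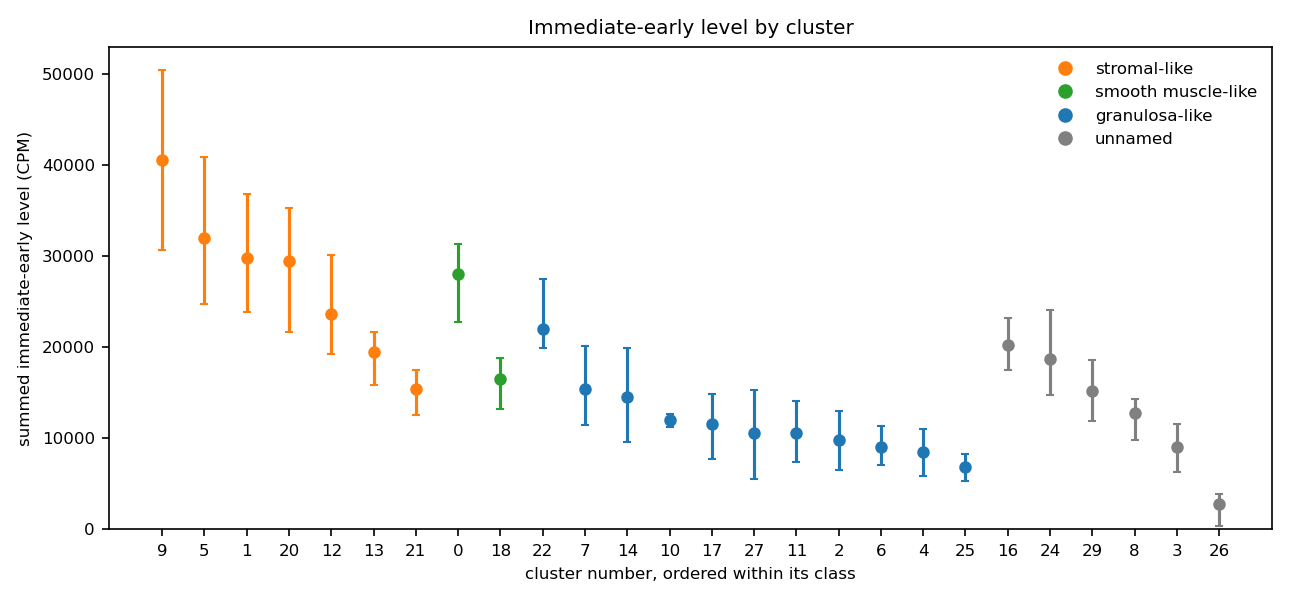
Summed immediate-early level (CPM) of each cluster of 3 classes and of the cells without a name, with a point for the mean over libraries and a bar from the lowest to the highest library. The stromal-like cluster led by Lrat stands at 40551 CPM and the dividing stromal-like cluster at 15350 CPM. The granulosa-like clusters other than the one with Krt79 among its top genes lie at or below 15385 CPM.

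Cells of a class were spread widely. In stromal-like cells of the 5 wk library, the 10th, 50th and 90th percentiles of the immediate-early sum were 112, 354 and 687 UMIs per 10000 UMIs of a cell, over 1776 cells. In granulosa-like cells of the same library they were 38.1, 115 and 266, over 2703 cells. Over the 5 libraries the 50th percentile ran from 219.5 to 354 in stromal-like and from 63.4 to 115 in granulosa-like cells. The 90th over the 10th percentile ran from 4.68 to 9.29 in stromal-like and from 4.69 to 7.32 in granulosa-like libraries, against 3.03 to 3.90 and 2.54 to 3.39 for the heat-shock sum. As a description over cells of a library, which share its depth and preparation, Fos went with Egr1 (median Spearman coefficient over the 5 libraries 0.746 in stromal-like and 0.683 in granulosa-like cells) and with Jun (0.737 and 0.672). The immediate-early sum went less with the heat-shock sum (0.306 and 0.341), and Fos with Hspa1a at 0.331 in stromal-like and 0.118 in granulosa-like cells. In stromal-like cells the immediate-early sum was lower where the mitochondrial share was higher (-0.439), and in granulosa-like cells that coefficient was -0.0534, with libraries from -0.167 to 0.154. Against UMIs per cell the coefficient of the immediate-early sum was -0.310 in stromal-like and -0.209 in granulosa-like cells, below 0 in each library. These coefficients take the clusters of a class together, and mitochondrial UMIs count in the denominator of the sum. The part of either in the coefficients was not tested.

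Of 35 other immediate-early genes from a list of the pathway, all were tested. In granulosa-like cells 22 were lower and 3 higher (against 31.0% and 33.3% of all genes), in theca-like cells 20 and 2 (23.6% and 20.3%), and in smooth muscle-like cells 10 and 4 (10.8% and 9.19%). In pericyte-like cells 17 were higher and 2 lower (17.3% in each direction), in blood endothelial-like cells 15 and 8 (23.9% and 26.2%), and in hematopoietic-like cells 16 and 8 (24.9% and 28.1%). Cebpd, a C/EBP factor of the acute response, ran from 368 to 1087 CPM in stromal-like and from 10.4 to 43.2 CPM in granulosa-like cells (-5.03, adjusted p = 7.95e-23). With the cytokine gene Il6 (-6.26, adjusted p = 2.04e-14) and the chemokine gene Ccl2 (-5.88, adjusted p = 8.23e-10) it made up the 3 largest differences of granulosa-like cells, although Il6 counted 13 UMIs and Ccl2 46 UMIs there in all libraries together. The same 3 genes led in theca-like cells (Ccl2 -3.26, Il6 -2.97 and Cebpd -2.37). In smooth muscle-like cells Il6 (-3.13) and Ccl2 (-2.13) were lower, with 30 and 151 UMIs in all. In pericyte-like cells the chemokine gene Cxcl2 (3.77), the phosphatase gene Dusp4 (3.02) and Il6 (2.93) led. Il6 ran from 14.8 to 47.6 CPM there, above the 0.71 to 14.4 CPM of stromal-like cells, while Cxcl2 counted 103 UMIs, 0.389 CPM in the lowest library and 39.1 CPM in the highest. Cxcl2 also led in hematopoietic-like cells, at 1539 to 3965 CPM against 0.431 to 2.52 CPM in stromal-like cells (11.30, adjusted p = 1.35e-18), followed by the phosphatase gene Dusp2 (7.65) and Ccl2 (6.91). In blood endothelial-like cells Cxcl2 (5.47) and Dusp2 (4.37) were higher and Ccl2 lower (-3.41), the last with 16 UMIs, all in the 5 wk library.

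Of 16 other chaperone genes all were tested too. In granulosa-like cells 8 were higher and 3 lower, against 33.3% and 31.0% of all genes, and in theca-like cells 5 and 3, against 20.3% and 23.6%. In pericyte-like cells 3 were higher and 8 lower (17.3% in each direction), in blood endothelial-like cells 2 and 9 (23.9% and 26.2%), in hematopoietic-like cells 1 and 9 (24.9% and 28.1%), and in smooth muscle-like cells 3 and 0 (9.19% and 10.8%). The small heat-shock protein gene Hspb1 was among the largest differences in smooth muscle-like cells, at 200 to 243 CPM against 22.2 to 33.9 CPM in stromal-like cells (2.89, SE 0.33, adjusted p = 5.05e-09), with no overlap. The mitochondrial chaperonin genes Hspd1 and Hspe1, named after their values were seen, were higher in theca-like (1.33 and 1.06) and granulosa-like cells (0.74 and 0.43) and lower in pericyte-like, blood endothelial-like and hematopoietic-like cells. Hspd1 ran from 789 to 1157 CPM in theca-like, from 638 to 865 CPM in granulosa-like and from 326 to 471 CPM in stromal-like cells. Bag3, an HSP70 co-chaperone induced by heat shock factor and also named after its values were seen, was lower in granulosa-like (-1.49) and theca-like cells (-0.87), as Hspa1a was.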

How the data were processed

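The authors dissociated ovaries of mice at 5 ages and sequenced 1 droplet library at each age on the NextSeq 500. They deposited raw UMI counts per gene and cell, aligned to mm10 and counted with Cell Ranger (3.1.0 per the labels; 3.1.0 for 3 libraries and 6.0.1 for 2 per the file headers), and the labels also list Seurat 4.1.0. All deposited cells and genes entered.

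Members and lists were chosen with earlier results of these data known. Libraries were integrated and clustered as in the study's workflow with Seurat 5.3.0 (2000 variable genes, members left out, 30 components, resolution 1), in R 4.3.3 and Python 3.11.15. A cluster was named from at least 3 markers, each in at least 10% of its cells and at least 1.5-fold the median over clusters. Where several types passed, the one with the highest mean standardized marker level was taken. It stayed unnamed with at least 50% doublets (Scrublet in scanpy 1.11.5), over 90% of cells from 1 library, under 30 cells or more top genes of another type. Low UMIs, under 33.3% of the library median, also left it unnamed unless a marker of its type was among its top genes. A cluster of 424 cells just above that limit, with 31.8% mitochondrial UMIs, stayed granulosa-like. These limits were set with the clusters known. Doublets stayed in, and leaving them out was an alternative.

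Counts were summed per class and library (at least 20 cells) and tested with edgeR 4.0.16 (quasi-likelihood, TMM, filterByExpr, library and class as terms, Benjamini-Hochberg over all genes). Poisson intervals (95%) of the levels cover counting error only. On simulated counts for granulosa-like against stromal-like cells, all 50 genes at each of 4 fold sizes (log2 -2, -1, 1 and 2) were called, and 0.110% of 12727 unchanged genes were. These counts followed the fitted spread, without differences between libraries, with few genes changed and without the other classes. The rates describe the fit under those settings and not the error of the calls above. Alternatives were RLE scaling, DESeq2 1.42.0, no low-count filter, no block, doublets removed, stricter cells, no integration, members among the clustering genes, each library left out, another denominator, per-cell means and, added after seeing the data, cells of 8000 to 15000 UMIs. Named by rule were the 3 members with the largest called rise and fall in each contrast, the 5 with the widest library range in stromal-like and granulosa-like cells, 3 other pathway genes in each contrast and the 10 genes most like the immediate-early sum.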

Additional observations from a re-analysis of the deposited data

How the results depend on the processing

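The 28 members lower in granulosa-like cells were the same 28 in all 14 alternatives of that contrast, and 24 of the 29 named member differences kept their direction and call in all of them. The exceptions were Hsph1 in granulosa-like cells and Cyr61, Nfkbiz, Gadd45b and Egr2 in smooth muscle-like cells. These 29 were picked as the largest called differences, which favours their stability. Over all called members, 11 of 21 theca-like falls were kept in every alternative. Hematopoietic-like cells kept 9 of 11 rises and 10 of 14 falls, and blood endothelial-like cells 5 of 6 and 12 of 19. Pericyte-like cells kept 3 of 6 rises and 5 of 7 falls. The smooth muscle-like class kept 0 of 1 and 0 of 6. No count of calls kept was set against a share over all genes. Without integration and with the members in, hematopoietic-like cells numbered 498 and 495 instead of 272. The stromal-like reference then held 11347 and 13954 cells instead of 12898. Without integration a cluster of 2683 cells with stromal markers, 94.1% from 1 library, stayed unnamed. Without the library block the counts became 0 higher in granulosa-like cells, 0 higher and 0 lower in smooth muscle-like cells, 3 higher in pericyte-like cells and 12 lower in blood endothelial-like cells. Over all 13844 genes 3561 were then higher in granulosa-like and 1872 in pericyte-like cells. In smooth muscle-like cells 760 were higher and 581 lower, and in blood endothelial-like cells 2885 were lower. In cells of 8000 to 15000 UMIs 2 members were higher in granulosa-like, 2 in smooth muscle-like and 3 in pericyte-like cells and 11 lower in theca-like cells, with immediate-early means of 12856 CPM in granulosa-like and 19785 CPM in theca-like cells and a heat-shock mean of 2057 CPM in pericyte-like cells. Of all 13199 genes tested there 3815 were higher in granulosa-like, 1233 in smooth muscle-like and 1716 in pericyte-like cells, and 2474 were lower in theca-like cells. With the members among the clustering genes, and again without integration, 2 members were higher in granulosa-like cells and 7 higher and 2 lower in smooth muscle-like cells, and the former gave an immediate-early mean of 28288 CPM in smooth muscle-like cells. Without doublets 2 were higher in granulosa-like cells. Over all genes 4477 of 13877 were higher in granulosa-like cells with the members in, 4026 of 13446 without integration and 4417 of 13706 without doublets. Leaving out mitochondrial and ribosomal protein genes from the denominator raised every mean, to 15442.5 CPM in granulosa-like, 23782 in theca-like, 38960.4 in stromal-like, 34967 in smooth muscle-like, 36095 in pericyte-like, 27112 in blood endothelial-like and 26722 in hematopoietic-like cells for immediate-early genes, and to 4823, 5090.3, 4741, 4495, 3018, 3743 and 4089.7 CPM for heat-shock genes in the same order, by construction, and put stromal-like above pericyte-like cells. The highest over lowest library of the immediate-early sum in granulosa-like cells (1.62) became 1.40 in the depth band, 1.63 with the other denominator, 1.55 by cell means, 1.64 with the members in, 1.74 without integration, 1.58 in stricter cells and 1.63 without doublets, and in stromal-like cells (1.49) 1.55, 1.48, 1.61, 1.44 and 1.68 under the first 5 and 1.47 without doublets. For the heat-shock sum it was 1.52 in granulosa-like cells and 1.42, 1.59, 1.47 and 1.55 in the depth band, with the other denominator, by cell means and without integration, and 1.5 in stricter cells, and 1.46 in stromal-like cells and 1.44, 1.49, 1.5 and 1.45 in the same order. Apart from the construction of the denominator, the causes were not tested. With each library left out in turn, the members called ran from 1 to 2 higher (2 without the 2 or 6 wk library) and 28 to 28 lower in granulosa-like, 19 to 24 lower in theca-like, 1 to 1 higher and 3 to 5 lower in smooth muscle-like (3 without the 2, 4 or 5 wk library), 4 to 7 higher and 6 to 10 lower in pericyte-like, 5 to 7 higher and 15 to 19 lower in blood endothelial-like and 10 to 11 higher and 12 to 15 lower in hematopoietic-like cells. Of the 13129 to 13758 genes tested in these fits, 4028 to 4225 were higher and 3859 to 4125 lower in granulosa-like cells. In theca-like cells 2691 to 3390 were lower. In smooth muscle-like cells 953 to 1242 were higher and 921 to 1300 lower, and in pericyte-like cells 2059 to 2209 and 1941 to 2083. In blood endothelial-like cells 2704 to 3267 were higher and 2814 to 3316 lower, and in hematopoietic-like cells 2984 to 3295 and 3175 to 3564. The class contrasts were paired by library, through the library block. Between ages, no paired analysis was possible because each age has 1 library. With 1 library an age, depth and cell number limit what the smaller classes can show, most of all the 27 to 90 hematopoietic-like cells of a library.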

Other observations

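Among genes that are no member, those whose level went most closely with the immediate-early sum over the 46 sums of class and library were Ppp1r15a (Spearman coefficient 0.794), which encodes a regulatory subunit of the phosphatase that ends the integrated stress response, Coq10b (0.765), the matrix protease gene Adamts4 (0.754), Cebpd (0.749), Rnf122 (0.723), the ubiquitin gene Ubb (0.697), the kinase gene Sik1 (0.693), Errfi1 (0.687), a feedback inhibitor of EGF receptors, Pnrc1 (0.674) and Gsn (0.673). The coefficients were taken over 6693 genes with a mean of at least 20 CPM and are a description, since the sums of a library share its depth and preparation.

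Cells left without a name had low immediate-early levels in places. A cluster of 424 cells led by haemoglobin genes held 2793 ± 1412 CPM (n = 5), the lowest of the 33 clusters. Its cells had a median of 1040.5 UMIs and 69.4% mitochondrial UMIs, which count in the denominator as haemoglobin UMIs do. A cluster of 2761 cells of low UMIs with granulosa markers held 9049 ± 2466 CPM, and one of 1476 cells of low UMIs with smooth muscle markers held 20178 ± 2501 CPM. Their median mitochondrial shares were 34.9% and 19.0%. A cluster of 281 cells led by the T and NK cell genes Ccl5, Nkg7 and Cd3g held 15120.1 ± 2735 CPM of immediate-early and 2586 ± 319 CPM of heat-shock genes, against 20417 ± 4053 and 3110.0 ± 788 CPM in the cluster led by macrophage genes. The ranges of these last clusters overlapped for the immediate-early sum, from 11864 to 18601 and from 16637 to 27064 CPM.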
